A study of Drosophila sechellia and Drosophila melanogaster and Drosophila simulans with 18 samples.

Results

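The proteasome subunit genes are the genes of *D. melanogaster* that encode the parts of the 26S proteasome, together with paralogs that are grouped here as testis forms. They were chosen by symbol, as every gene of the *D. melanogaster* table whose name starts with *Prosalpha*, *Prosbeta*, *Rpn* or *Rpt* followed by the subunit number. There were 47 such genes among the 17649 of the table. Of these, 32 are the standard subunits, and 15 carry a T or an R after the subunit number and are kept apart here as testis paralogs. The *D. simulans* table (15372 genes) and the *D. sechellia* table (17273 genes) hold 0 of these symbols, so the standard subunits of those species were not analysed here.

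The study asked how diet with 3,4-dihydroxyphenylalanine (L-DOPA), the precursor of dopamine, alters gene expression in *D. sechellia* and its relatives. Young adult females of *D. melanogaster* strain 14021-0231.36, reared on cornmeal medium, were given L-DOPA at 10 mg/ml in instant food, or instant food alone as the control, for 24 hr. RNA of whole flies was pooled within each library, and each food had 3 libraries. The deposited table gives 1 FPKM value per gene and food, combined over the 3 libraries, where FPKM is expression scaled to transcript length and library size. Since only combined values were analysed, no value below has a test, or an SD or an n across libraries. No difference below is shown to exceed the spread between libraries. The combined values do not give the depth of the libraries. The study reports read counts for each library, which were not used here. All 5 listed female markers were high, with a summed level of 18988 FPKM on L-DOPA food and 22057 FPKM on control food, but some differed strongly between the foods. The yolk protein genes *Yp1*, *Yp2* and *Yp3* had log2 changes, L-DOPA over control, of -0.19, -0.23 and 0.03. The eggshell genes, which are expressed in late egg chambers, differed more. *Cp18* had 304 FPKM on L-DOPA food and 923 FPKM on control food (log2 change -1.60), and *Vm26Ab* had 1384 FPKM on L-DOPA food and 1900 FPKM on control food (log2 change -0.46). Their part in the values of the proteasome genes was not tested. In whole flies, a lower level can mean fewer cells of a type or less RNA per cell, and these cannot be told apart.

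The proteasome degrades proteins that have been tagged with ubiquitin. Its core particle is a barrel of stacked rings, with α subunits (*Prosalpha* genes) at the ends forming a gate and β subunits (*Prosbeta* genes) inside carrying the proteolytic sites. The regulatory particle caps the barrel. It holds a ring of ATPases (*Rpt* genes) that unfold the substrate, and non-ATPase subunits (*Rpn* genes) that bind ubiquitin, remove it or form the scaffold and lid. The subunits are needed in fixed proportions, and in flies and mammals their genes are known to be raised together by a Cnc or Nrf1 transcription factor when the proteasome is impaired. In *Drosophila*, several subunits also have duplicate genes that are known for expression in the male germ line.

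On L-DOPA food, the proteasome genes were expressed at almost the same levels as on control food. All 32 standard subunits lay above the minimum of 1 FPKM on both foods. None was at least 1.2-fold higher on L-DOPA, against 8.14% of the 10229 genes with at least 1 FPKM on both foods, and none was at least 1.2-fold lower, against 5.94% of those genes. None passed 1.1-fold either, which 19.2% of all genes did upward and 15.7% downward. The log2 change, in which a positive value means a higher FPKM on L-DOPA food, ran from -0.10 for *Rpt1* to 0.14 for *Prosbeta1*. Its median over the 32 subunits was 0.01, beside a median of 0.00 over all genes. Of all genes, 57.6% had a change within the range spanned by the 32 subunits. Of the 6445 genes with at least 10 FPKM on both foods, a level that every standard subunit exceeded, 64.5% did so. Genes with at least 10 FPKM were thus also mostly near no difference, and the share of them at least 1.2-fold higher was 5.99% and that at least 1.2-fold lower was 3.83%. Their median level was 31.6 FPKM, below every standard subunit, so this background is not matched to the subunits in level. The shares past 1.1-fold were not computed for it. At the shares past 1.2-fold in either background, few calls would be found among 32 genes, and the difference from them was not tested.

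**Figure D1:**
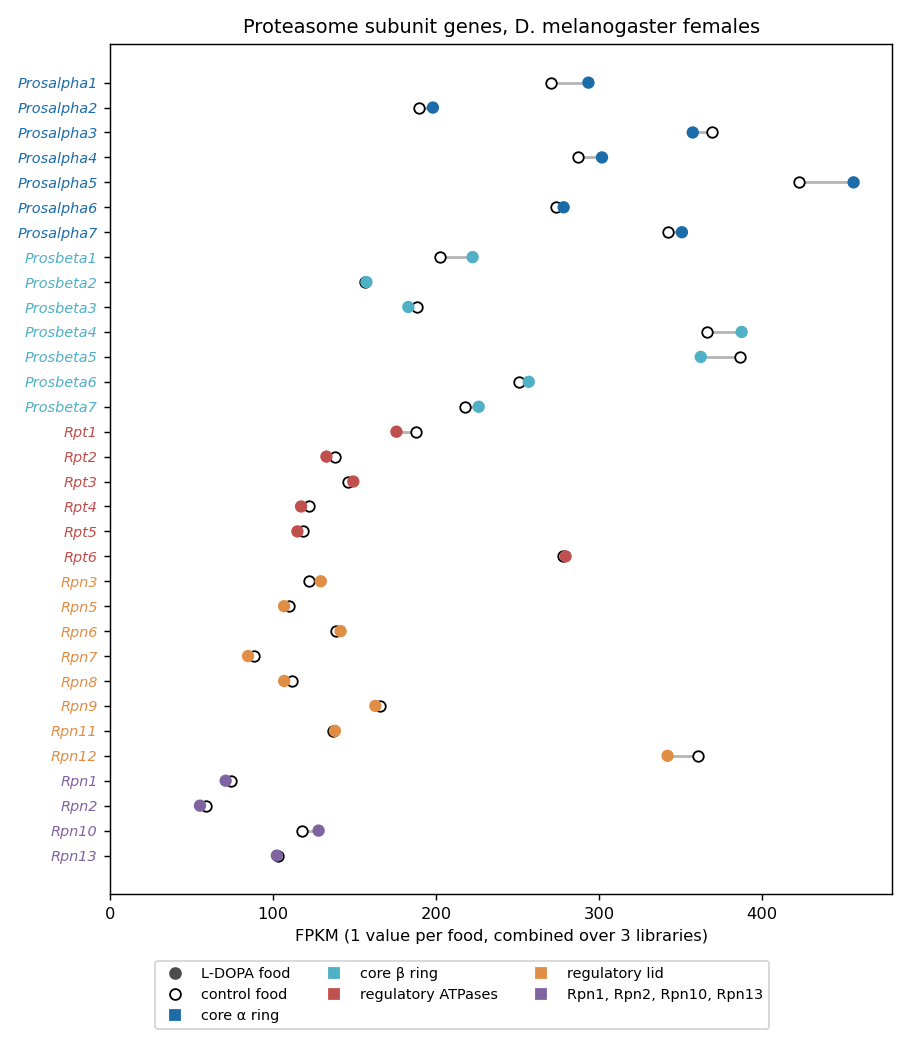
FPKM of the 32 standard proteasome subunit genes on L-DOPA food (filled points) and control food (open points) in *D. melanogaster* females, 1 value per food combined over 3 libraries, with grey lines joining the foods. The points of a gene nearly coincide, the largest shift along the axis being that of *Prosalpha5* with 456 FPKM on L-DOPA food and 423 FPKM on control food.

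The α subunits form the gate through which substrates enter. *Prosalpha5* (FBgn0016697, BDGP6 chromosome 2R from 17412767 to 17413769, 3 exons) had the highest level of all subunits taken in by the symbol rule, at 456 FPKM on L-DOPA food and 423 FPKM on control food. Its log2 change was 0.11. *Prosalpha1* had 293 FPKM on L-DOPA food and 270.3 FPKM on control food, with a log2 change of 0.12, the largest of the ring. *Prosalpha3* was the only α gene that was lower on L-DOPA food as deposited, at 357 FPKM against 369 FPKM on control food, while 4 of the 7 α genes were higher once each food was rescaled to the same total. The ring's lowest gene was *Prosalpha2*, at 198 FPKM on L-DOPA food and 189 FPKM on control food. The remaining α genes were slightly higher on L-DOPA food in the deposited values. *Prosalpha7* had 351 FPKM on L-DOPA food and 342 FPKM on control food (log2 change 0.04). *Prosalpha4*, the gene with the most testis copies in the α ring, had 302 FPKM on L-DOPA food and 287 FPKM on control food (log2 change 0.07). *Prosalpha6* had 278 FPKM on L-DOPA food and 273 FPKM on control food (log2 change 0.03). Within the ring the highest gene was 2.30 times the lowest on L-DOPA food and 2.23 times the lowest on control food, and the median log2 change was 0.06.

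Of the β subunits, β1, β2 and β5 carry the proteolytic sites, and the others complete the ring. The β genes that encode proteolytic subunits differed among themselves in direction. *Prosbeta1* (FBgn0010590, BDGP6 chromosome 2R from 16013805 to 16014787, 3 exons), whose product cleaves after acidic residues, had the largest log2 change of all subunits, 0.14, with 222 FPKM on L-DOPA food and 202 FPKM on control food. *Prosbeta2*, whose product cleaves after basic residues, had the smallest, 0.01, with 157.2 FPKM on L-DOPA food and 156.6 FPKM on control food. *Prosbeta5*, whose product cleaves after hydrophobic residues, had a log2 change of -0.09, with 362 FPKM on L-DOPA food and 387 FPKM on control food. Among the structural β genes, *Prosbeta4* was the most highly expressed, at 387 FPKM on L-DOPA food and 366 FPKM on control food (log2 change 0.08). *Prosbeta6* had 257 FPKM on L-DOPA food and 251 FPKM on control food (log2 change 0.03), and *Prosbeta7* had 226 FPKM on L-DOPA food and 218 FPKM on control food (log2 change 0.05). *Prosbeta3* was the structural β gene that was lower on L-DOPA food as deposited, at 183 FPKM against 188 FPKM on control food (log2 change -0.04). The 7 β genes had a median log2 change of 0.03, with 5 higher on L-DOPA food as deposited and 3 after rescaling to the same total.

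The ATPases of the regulatory particle thread unfolded proteins into the core. Of the 6 *Rpt* genes, 4 were lower on L-DOPA food in the deposited values and 6 after each food was rescaled to the same total. The median log2 change as deposited was -0.05. *Rpt1* had the lowest log2 change of all subunits, -0.10, with 176 FPKM on L-DOPA food and 188 FPKM on control food. The other genes that were lower on L-DOPA food had smaller differences. *Rpt2* had 133 FPKM on L-DOPA food and 138 FPKM on control food (log2 change -0.06). *Rpt4* had 117 FPKM on L-DOPA food and 122 FPKM on control food (log2 change -0.06), and *Rpt5* had 115 FPKM on L-DOPA food and 118 FPKM on control food (log2 change -0.04). *Rpt3* was on the other side of 0 in the deposited values only, with 149 FPKM on L-DOPA food and 146 FPKM on control food (log2 change 0.03). *Rpt6* stood apart in level, at 279 FPKM on L-DOPA food and 278 FPKM on control food, while the other *Rpt* genes lay between 115 and 176 FPKM on L-DOPA food and between 118 and 188 FPKM on control food.

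The lid includes *Rpn11*, which encodes the metalloprotease that removes ubiquitin chains from the substrate. It had 138 FPKM on L-DOPA food and 137 FPKM on control food, a log2 change of 0.01. *Rpn8*, which encodes the catalytically inactive partner of Rpn11, had 107 FPKM on L-DOPA food and 112 FPKM on control food, a log2 change of -0.06. Among the lid genes that the symbol rule takes in, *Rpn12* was the most highly expressed. It had 342 FPKM on L-DOPA food and 361 FPKM on control food (log2 change -0.08), a level otherwise found, within the rule, only among core genes. The lid gene *Sem1*, which lies outside the rule and is given below, was higher. *Rpn7* was the lowest of the lid, at 84.5 FPKM on L-DOPA food and 88.5 FPKM on control food (log2 change -0.07). *Rpn3* had the largest log2 change upward among lid genes, 0.08, with 129 FPKM on L-DOPA food and 122 FPKM on control food. The other lid genes lay closer to 0. *Rpn6*, whose product clamps the lid to the core, had 141 FPKM on L-DOPA food and 139 FPKM on control food (log2 change 0.03). *Rpn9* had 163 FPKM on L-DOPA food and 166 FPKM on control food (log2 change -0.03), and *Rpn5* had 107 FPKM on L-DOPA food and 109.5 FPKM on control food (log2 change -0.04). The lid genes of the rule, without *Sem1*, thus spanned 4.05-fold in level on L-DOPA food and 4.08-fold on control food, more widely than either core ring.

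The large scaffold subunits had the lowest levels. *Rpn2* (FBgn0028692, BDGP6 chromosome 3R from 29153524 to 29157255, 3 exons), a scaffold subunit, was the lowest of all 32 genes, with 55.03 FPKM on L-DOPA food and 58.6 FPKM on control food (log2 change -0.09). *Rpn1*, the other large scaffold subunit and a docking site for ubiquitin shuttle proteins, followed with 70.8 FPKM on L-DOPA food and 73.9 FPKM on control food (log2 change -0.06). The receptor genes did not move alike. *Rpn10* (FBgn0015283, BDGP6 chromosome 3L from 21537000 to 21538582, 3 exons) had a log2 change of 0.12, with 128 FPKM on L-DOPA food and 118 FPKM on control food. *Rpn13* had a log2 change of -0.01, with 102 FPKM on L-DOPA food and 103 FPKM on control food.

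**Figure D2:**
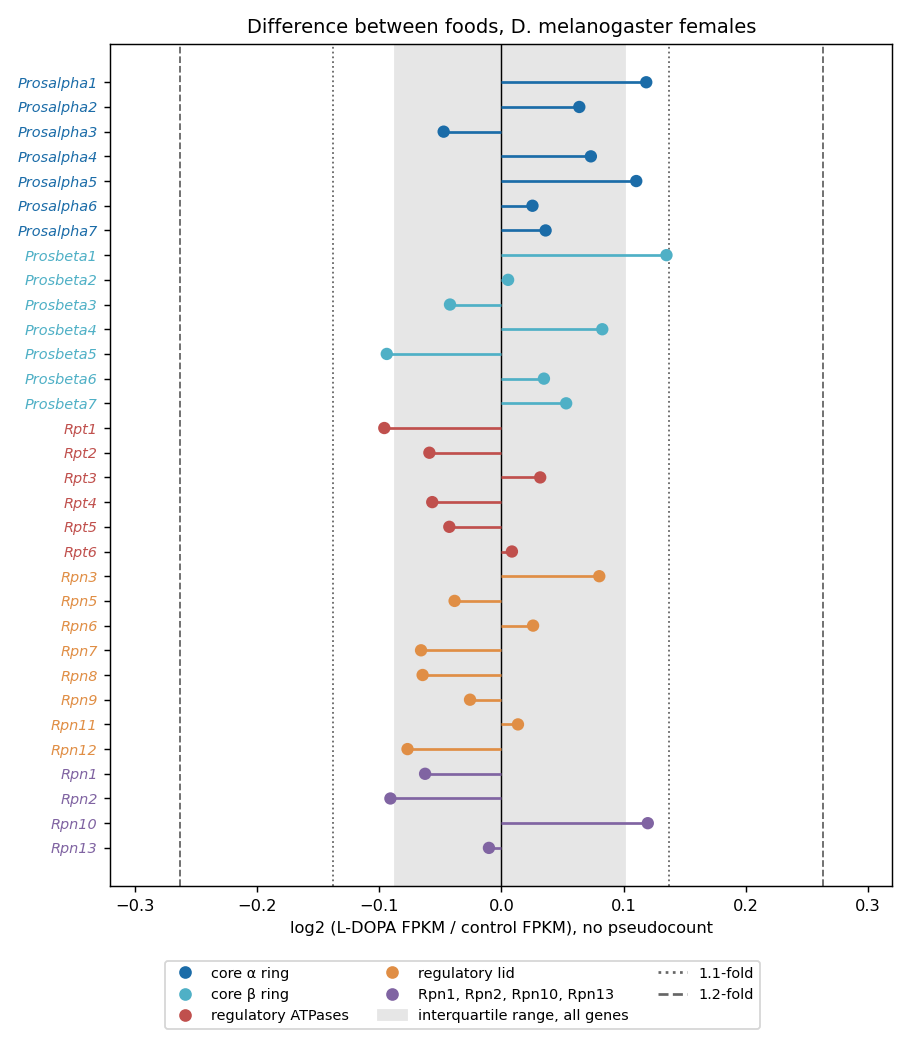
Log2 of L-DOPA FPKM over control FPKM for each standard subunit gene, coloured by part of the proteasome, with the interquartile range of all genes with at least 1 FPKM on both foods in grey (-0.09 to 0.10). Every point lies inside the dotted lines at 1.1-fold, with *Prosbeta1* at 0.14 the nearest to them.

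When the subunits were grouped by particle, a grouping looked at after the values were seen, the core and the regulatory particle leaned to opposite sides of 0. As deposited, 11 of 14 core genes were higher on L-DOPA food (median log2 change 0.04), and 12 of 18 regulatory genes were lower (median -0.04), while rescaling each food to the same total left 7 of 14 core genes and 2 of 18 regulatory genes higher. The gap between the medians was 0.09, and rescaling could not alter the gap, since every log2 change is shifted by the same amount. It is a gap of single combined values and has no test, and it lies within 1.1-fold. Of the 32 genes, 16 overlap another annotated gene, 15 of them only on the opposite strand, and whether reads were counted by strand is not given in the sources used here. Among the 16 genes without an overlap, a subset also chosen after the values were seen, the 7 core genes had a median of 0.04 and the 9 regulatory genes a median of -0.01. *Prosbeta1* and *Rpt1*, at the ends of the range, each overlap a neighbour (*CG8389* on the opposite strand and *CG17985* on the same strand), and *Rpn10* overlaps none.

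Levels rather than changes separated the particles. The median core gene had 286 FPKM on L-DOPA food and 272 FPKM on control food. The median regulatory gene had 129 FPKM on L-DOPA food and 122 FPKM on control food, so that the ratio of core to regulatory medians was 2.22 on L-DOPA food and 2.23 on control food. On each food, 14 of the 18 regulatory genes lay below every core gene, and the exceptions were *Rpn12*, *Rpt6*, *Rpt1* and *Rpn9*. The order of the 32 genes was nearly the same on both foods. By rank, 19 genes held the same place, 29 moved by at most 1 place and no gene moved by more than 2. Across these genes, which are not independent replicates, log2 FPKM on the foods had a Pearson's r of 0.996 and a Spearman's rho of 0.996 (n = 32), and across all 10229 genes with at least 1 FPKM the values were 0.992 and 0.991. Which neighbours in the order differ beyond the spread between libraries is not known from combined values.

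Over the 32 genes together, levels were lower where transcripts were longer, although FPKM is already scaled to length. The difference between the particles in both level and length is part of this relation. Core genes have a longest annotated transcript of 815 to 1215 nucleotides and regulatory genes one of 995 to 3412 nucleotides. Across the 32 genes, the log2 of the mean FPKM and of this length had a Pearson's r of -0.81 and a rho of -0.76. Among the 18 regulatory genes r was -0.73 and rho -0.42, and among the 14 core genes there was hardly a relation (r = -0.08, rho = -0.06). A few regulatory genes lie at the ends of both scales. *Rpn12* (995 nucleotides) has their shortest transcript and highest level. *Rpn1* (3041 nucleotides) and *Rpn2* (3412 nucleotides) have their longest transcripts and lowest levels. The correlation without these genes was not computed. Across 10145 genes of at least 1 FPKM, r was -0.25 and rho -0.27. These correlations describe genes that share the same libraries. The part of the length correction in them was not tested.

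**Figure D3:**
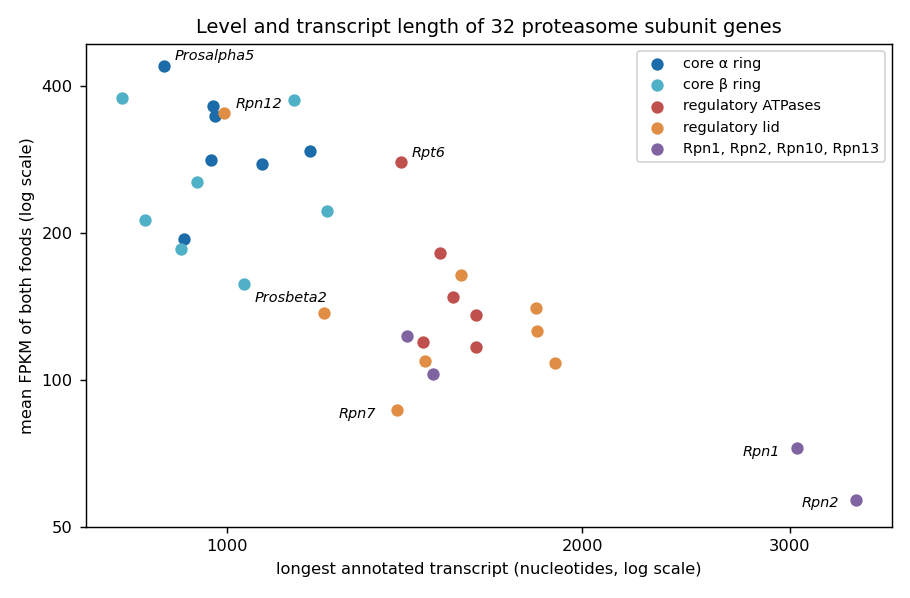
Mean FPKM of both foods against the length of the longest annotated transcript for the 32 standard subunit genes, on log axes and coloured by part of the proteasome. *Rpn1* and *Rpn2* have the longest transcripts and the lowest levels, and *Rpn12*, the regulatory gene with the shortest transcript, lies among the core genes.

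The testis paralogs were at or near 0 in these females, with a pair of exceptions. Of the 15 paralogs, 6 were listed at 0 on both foods: *Prosalpha6T*, *Prosbeta4R1*, *Prosbeta4R2*, *Prosbeta5R1*, *Prosbeta5R2* and *Rpn13R*. In the whole table, 2743 genes were listed at 0 on both foods. Another 7 paralogs were above 0 on at least 1 food and under 0.3 FPKM on both. The standard subunits that the 15 paralogs are named after lay between 102 and 387 FPKM on L-DOPA food and between 103 and 387 FPKM on control food.

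The exceptions were the ATPase paralogs *Rpt3R* and *Rpt6R*. *Rpt3R* (FBgn0037742, BDGP6 chromosome 3R from 9754735 to 9756510, 2 exons) had 5.89 FPKM on L-DOPA food and 5.57 FPKM on control food, a log2 change of 0.08. This was 3.95% of the level of *Rpt3* on L-DOPA food and 3.82% on control food. It overlaps *Alg12* on the opposite strand. *Rpt6R* (FBgn0039788, BDGP6 chromosome 3R from 30582198 to 30583697, 2 exons), which overlaps no annotated gene, had 1.73 FPKM on L-DOPA food and 1.54 FPKM on control food, a log2 change of 0.17. This was 0.62% of the level of *Rpt6* on L-DOPA food and 0.556% on control food. Reads from near-identical stretches of a paralog and its standard subunit could have been split between them, and the part of such reads was not tested.

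The other ATPase paralog, *Rpt4R*, had 0.192 FPKM on L-DOPA food and 0.225 FPKM on control food. *Rpn12R*, which lies within the span of *Sytbeta* on the same strand, had 0.0753 FPKM on L-DOPA food and 0.147 FPKM on control food. *Prosbeta2R2* had 0.108 FPKM on L-DOPA food and 0.0997 FPKM on control food. For these 3 genes the log2 changes were -0.23, -0.96 and 0.11, at levels far under the minimum of 1 FPKM. *Prosalpha3T* had 0.0125 FPKM on L-DOPA food and 0.0751 FPKM on control food. *Prosbeta2R1* had 0.0182 FPKM on L-DOPA food and was listed at 0 on control food, and *Prosalpha4T1* had 0.0122 FPKM on L-DOPA food and was also listed at 0 on control food. *Prosalpha4T2* was listed at 0 on L-DOPA food and had 0.0179 FPKM on control food. Such values stand at the bottom of the table: of the genes above 0 on the same food, 3.18% had a lower value than *Prosbeta2R1*, 1.98% a lower one than *Prosalpha4T1* and 2.18% a lower one than *Prosalpha4T2*.

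**Figure D4:**
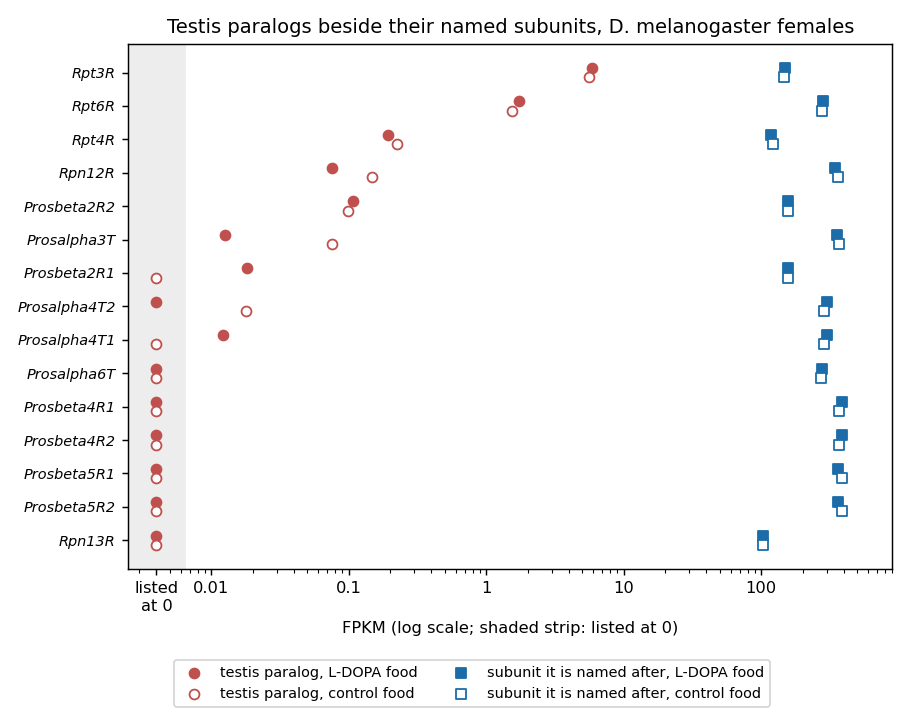
FPKM of the 15 testis paralogs (circles) and of the standard subunits they are named after (squares) on L-DOPA food (filled) and control food (open), on a log axis with genes listed at 0 in the shaded strip. *Rpt3R* and *Rpt6R* are the only paralogs above 1 FPKM, and every standard subunit shown lies at 102 FPKM or more.

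Markers of male tissue were low in the same libraries. Of 15 listed testis genes, 13 were found by symbol, and 11 of these were under 1 FPKM on both foods, including the sperm tail genes *Mst84Da* and *Mst98Ca*, listed at 0 on both. The summed level of the testis list was 30.5 FPKM on L-DOPA food and 34.9 FPKM on control food. Nearly all of it came from *twe*, a phosphatase gene that also acts in female meiosis, with 19.6 FPKM on L-DOPA food and 20.8 FPKM on control food, and from *Pif1A*, with 9.91 FPKM on L-DOPA food and 13.3 FPKM on control food. All 8 listed accessory gland genes were under 1 FPKM on both foods, and the sex peptide gene *SP* was listed at 0 on both.

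The partners of the proteasome likewise differed little between the foods. Of 25 listed genes, all were found with at least 1 FPKM on both foods, and 0 were at least 1.2-fold higher or lower. Of all genes with at least 1 FPKM on both foods, 8.14% were at least 1.2-fold higher and 5.94% lower. Few calls would be found among 25 genes at such shares, and the difference from them was not tested. Their median log2 change was 0.02, with 15 higher on L-DOPA food as deposited and 10 when each food was rescaled to the same total. The largest difference was that of *maf-S*, which encodes the small Maf partner of Cnc, with 135 FPKM on L-DOPA food and 156 FPKM on control food (log2 change -0.21). *cnc* itself had 46.7 FPKM on L-DOPA food and 48.0 FPKM on control food (log2 change -0.04), and *Keap1*, which encodes the inhibitor of Cnc, had 3.39 FPKM on L-DOPA food and 3.34 FPKM on control food (log2 change 0.02).

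Genes that build or edit the particle also differed little. *Sem1*, which encodes the smallest lid subunit and lies outside the symbol rule, was higher in level than every *Rpn* gene, with 603 FPKM on L-DOPA food and 640.5 FPKM on control food (log2 change -0.09). The assembly factor gene *Pomp* had 89.9 FPKM on L-DOPA food and 96.3 FPKM on control food (log2 change -0.10). The deubiquitinase genes *Usp14* and *Uch-L5* had log2 changes of 0.13 and -0.07, and the activator gene *REG* and the regulator gene *PI31* had log2 changes of 0.01 and 0.04.

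The supply of ubiquitin comes from polyubiquitin genes and from genes that join it to a ribosomal protein. *Ubi-p63E* had a log2 change of 0.05 and *Ubi-p5E* one of -0.09. *RpL40* had a log2 change of 0.03, and *RpS27A* had 6855 FPKM on L-DOPA food and 7527 FPKM on control food (log2 change -0.13). *Uba1*, which encodes the enzyme that activates ubiquitin, had a log2 change of 0.01. For delivery, *TER94*, the segregase gene, had a log2 change of 0.02, and the shuttle genes *Rad23*, *Ubqn* and *rngo* had log2 changes of 0.07, 0.07 and 0.06.

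The CCT chaperonin, another fixed complex of many different subunits, was set beside the proteasome. Its 8 genes lay between 148 and 293 FPKM on L-DOPA food and between 144 and 277 FPKM on control food. None passed 1.1-fold, which 19.2% of all genes with at least 1 FPKM did upward and 15.7% downward. Their log2 changes ran from 0.00 to 0.08 with an SD across genes of 0.02, and those of the 32 proteasome genes had an SD across genes of 0.07. Across all genes with at least 1 FPKM that SD was 0.28. These are spreads among genes and not among libraries, and the difference between the complexes has no test.

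**Figure D5:**
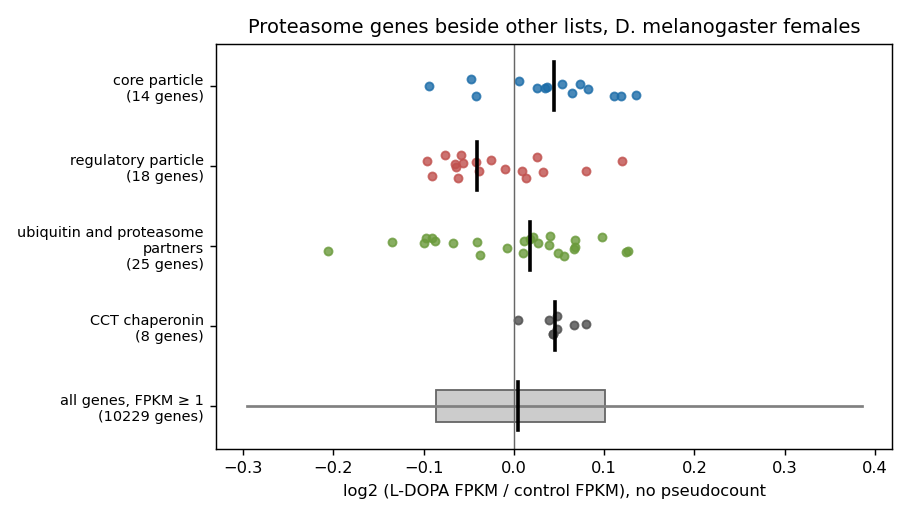
Log2 of L-DOPA FPKM over control FPKM for genes of the core particle, the regulatory particle, the partner list and the CCT chaperonin (points, with the vertical bar at the median), above a box for all 10229 genes with at least 1 FPKM on both foods (box: interquartile range, line: central 90% of genes). All listed genes lie between the *maf-S* value of -0.21 and the *Prosbeta1* value of 0.14, and the central 90% of all genes runs from -0.30 to 0.39.

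In the other species, only names outside the rule could be read. Both tables list *Pros28.1A* and *Pros28.1B*, symbols used earlier in *D. melanogaster* for the testis paralogs of the α4 subunit, and these were looked up after the members were found. Females of *D. simulans* (strain 14021-0251.195) and *D. sechellia* (strain 14021-0428.25) were fed as above, with 3 libraries per food. In *D. simulans*, *Pros28.1A* was listed at 0 on L-DOPA food and had 0.0479 FPKM on control food, and *Pros28.1B* was listed at 0 on both foods. In *D. sechellia*, *Pros28.1A* was listed at 0 on both foods, and *Pros28.1B* had 0.177 FPKM on L-DOPA food and was listed at 0 on control food. Of the partner list, the *D. simulans* table names *Rad23*, with 91.5 FPKM on L-DOPA food and 103 FPKM on control food (log2 change -0.17), beside a median of -0.08 over the genes of that table with at least 1 FPKM on both foods. The tables were normalized separately, so levels were not compared between species.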

How the data were processed

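The labels name FastQC, Bowtie2 and Cuffdiff, without versions. By the study's methods, the authors aligned each species to its own genome (BDGP6 for *D. melanogaster*), and in Cuffdiff chose geometric normalization together with a correction for gene length. Each deposited FPKM is a single number for a gene on a food, into which Cuffdiff combined 3 libraries. Whole reads were not recovered from the combined values. The deposited tables also hold the authors' fold changes, test scores, p-values and q-values, which were not used.

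Log2 changes were computed without a pseudocount, as L-DOPA over control. Genes with at least 1 FPKM on both foods formed the background, and a difference of at least 1.2-fold was counted. Values of the separate libraries were not analysed, so no test was made. All members could be named, with full values for the 5 highest and 5 lowest levels, the 3 largest and 3 smallest log2 changes and paralogs of at least 0.1 FPKM; other values given in full were chosen after they were seen. The members and lists were chosen with earlier results of these data known. Coordinates, exons and lengths are from Ensembl release 115 of BDGP6, matched by identifier for all 47 members; 26 have the same span in the table, which elsewhere gives the span of overlapping genes. Sequences were not used here. Alternatives were a pseudocount of 1, other FPKM minima, centring on the median gene, rescaling to TPM, and folds of 1.1, 1.5 and 2. Software was scipy 1.17.1, pandas 2.3.3 and numpy 2.4.6 under Python 3.11.15.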

Additional observations from a re-analysis of the deposited data

How the results depend on the processing

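No standard subunit was at least 1.2-fold higher or lower with a pseudocount of 1, without a minimum or with a minimum of 10 FPKM. The same held after centring on the median gene or rescaling to TPM, and none was past folds of 1.1, 1.5 or 2. Neither minimum drops a subunit, the lowest being *Rpn2* with 55.03 FPKM on L-DOPA food and 58.6 FPKM on control food. At such levels a pseudocount of 1 is negligible, and the median log2 change was 0.007 with and without it. Folds of 1.5 and 2 follow from that of 1.1. Centring and rescaling shift every log2 change alike. The lowest, that of *Rpt1*, was -0.13 after rescaling, within the 0.26 that marks 1.2-fold. These alternatives therefore had little room to alter the counts. The median log2 change of the 32 subunits was 0.00 after centring and -0.03 after rescaling to TPM. Only for the partner list did a count move, since 1 gene, *maf-S*, was lower by at least 1.1-fold, as were 15.7% of all genes with at least 1 FPKM on both foods. In an alternative added after the data were seen, the 16 subunits without an overlapping gene had a median of 0.03. The log2 changes of 19 named members moved by at most 0.06 in the alternatives run for each. For the paralogs *Rpn12R*, *Rpt4R* and *Prosbeta2R2*, all under 1 FPKM, only the removal of the minimum was run, which cannot move a log2 change. How far a pseudocount or rescaling would move these paralogs was not tested. The direction of small changes depends on the scaling, since the shift of 0.04 between the foods' totals left 9 of the 32 subunits higher on L-DOPA food after rescaling to TPM, against 17 as deposited. No paired analysis was possible because each food has 1 combined value, and for the same reason no library was left out. The alternatives were not run for the subunits of *D. simulans* and *D. sechellia*, whose tables hold 0 of the symbols. The combined values give neither depth nor spread, and whether a difference of this size exceeds the spread between libraries is not known.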
